A study of Mus musculus with 50 samples.

Results

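The microRNAs mmu-miR-203-3p and mmu-miR-205-5p were followed in mouse blood serum after 2 kinds of experimental stroke. They were chosen by name and are 2 of the 1892 miRNA entries in the deposited count table, and both are among the 199 entries that passed a filter on low counts. Serum came from C57BL/6 mice aged 8 to 12 weeks, and each of 5 groups held 5 small RNA libraries. In the MCAO group, a model of ischemic stroke, a filament blocked the left middle cerebral artery for 30 min and blood was drawn 150 min after flow returned. MCAO_Sham mice went through the same preparation without a filament entering the vessel. ICH mice, a model of hemorrhage inside the brain, had 20 µL of their own blood placed in the striatum through a borehole in a stereotactic frame. For ICH_Sham mice the needle was lowered without an injection, and Naive mice had no procedure. A sampling time is given in the labels for MCAO alone. The labels do not state that every library is from a different animal, so the p-values below describe the spread between libraries, which may be technical.

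MicroRNAs are short RNAs that guide Argonaute proteins to messenger RNAs, mainly by pairing through a short stretch near the 5′ end called the seed, and so lower the output of those messengers. In mouse skin, miR-203 is made as keratinocytes leave the basal layer, and it represses p63, a transcription factor that maintains epidermal progenitors. miR-205 is abundant in stratified epithelia, including skin progenitors, where it targets negative regulators of PI3K signalling. Together with the miR-200 family it also represses Zeb1 and Zeb2, transcription factors that shut off epithelial genes. The keratinocyte label is knowledge about tissues. Serum holds RNA released from many cell types, and these libraries also carried miR-122-5p of liver, with 232080 counts, and miR-451a of red cells, with 14827. In serum, the number of cells that release a miRNA and the amount each releases cannot be told apart.

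The mature sequences are shown, 5′ to 3′, because the counts are of these products and because they show that the pair does not share a target-recognition seed. Capitals mark the seed, bases 2 to 8.
miR-203-3p: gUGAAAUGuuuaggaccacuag
miR-205-5p: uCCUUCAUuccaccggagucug
Both are 22 bases long in the RefSeq table, and the lengths of the sequenced reads were not examined. The longest stretch that the 2 sequences have in common is 4 bases. No other entry among the 1738 mature miRNAs of that table has the seed UGAAAUG or CCUUCAU, and none has the same full sequence as either miRNA. GC content was 40.9% for miR-203-3p and 54.5% for miR-205-5p.

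The precursor hairpins are shown, 5′ to 3′, because the arm of origin differs between the pair. Capitals mark the mature product counted here.
Mir203 hairpin: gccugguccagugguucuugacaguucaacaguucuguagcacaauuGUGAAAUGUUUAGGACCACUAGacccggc
Mir205 hairpin: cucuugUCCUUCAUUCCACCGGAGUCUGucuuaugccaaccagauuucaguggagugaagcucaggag
In Mir203 the product lies in the 3′ arm, and in Mir205 it lies in the 5′ arm. On GRCm38.p6, miR-203-3p is at chr12:112130927-112130948 on the plus strand, within a 76-base hairpin. That hairpin is intergenic in the GENCODE annotation of GRCm38, 3321 bp from Aspg and 15253 bp from Kif26a, both protein-coding and on the same strand. miR-205-5p is at chr1:193507503-193507524 on the minus strand, within a 68-base hairpin. That hairpin lies in an exon of the long noncoding RNA gene 4631405K08Rik on the same strand. The 2 genes are on different chromosomes and are therefore not processed from a shared transcript. The build behind the deposited table is not given in the sources used here, and positions come from the RefSeq table.

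Serum held almost only the main arm of each hairpin. miR-203-5p, the other arm of Mir203, had 1 count over all libraries, against 21115 counts for miR-203-3p. That was 0.00474% of the counts of both arms (exact 95% binomial interval 0.00012% to 0.0264%). miR-205-3p, the other arm of Mir205, had 33 counts in 17 of 25 libraries, against 3684 counts for miR-205-5p. Its share was 0.888% (exact 95% interval 0.612% to 1.25%). MCAO libraries held 9 of these counts and MCAO_Sham libraries 3, ICH 14 and ICH_Sham 6, and Naive 1, too few to compare groups. These intervals cover counting error only, because the reads carry no molecular identifiers, and they take the 2 deposited columns of a library as separate runs.

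Both miRNAs were present in all 25 libraries. Levels are given as counts per 1000000 counts (CPM), after each library total was scaled by TMM, edgeR's trimmed-mean factor. At a mean of 7953 CPM, miR-203-3p ranked 33 of 199 miRNAs, just under miR-146a-5p at 8147 CPM and let-7i-5p at 8096 CPM. Below it stood let-7g-5p at 7946 CPM and miR-423-5p at 7882 CPM. miR-205-5p ranked 74 at a mean of 1367 CPM, between miR-139-5p at 1451 CPM and miR-674-3p at 1402 CPM above it and miR-183-5p at 1348 CPM and miR-361-3p at 1320 CPM below it. So the more abundant member lay beside let-7i-5p and let-7g-5p, and the other ranked lower among the kept miRNAs. Within single libraries, the rank of miR-203-3p ran from 8 to 52 and that of miR-205-5p from 35 to 111. These ranks compare counts of different sequences, whose ligation in library preparation can differ.

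Library totals ran from 38393 to 315646 counts, and group means were 153952 (MCAO), 92396 (MCAO_Sham), 118431 (ICH), 115325 (ICH_Sham) and 55662 (Naive). A library had 179 to 2851 counts of miR-203-3p and 18 to 717 counts of miR-205-5p, so the values of miR-205-5p are the less precise, above all in Naive mice. The library with 18 counts, Naive 5, gave miR-205-5p a share of 0.0469% of its counts (exact 95% interval 0.0278% to 0.0741%). ICH 3 stood at the other end, with a share of 3.10% for miR-203-3p (2.99% to 3.21%) and 0.779% for miR-205-5p (0.723% to 0.838%). In that library the 2 deposited columns, read as repeat runs and summed, gave 1459 and 1392 counts of miR-203-3p, and 359 and 358 counts of miR-205-5p. All ICH and ICH_Sham libraries carry index tags from 1 run of numbers, which no other group uses. For any comparison of these groups with MCAO, MCAO_Sham or Naive, tag range and group cannot be told apart.

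miR-203-3p was highest in serum of ICH mice. Its level was 4649, 5277, 6528, 6056 and 5297 CPM in the MCAO libraries, against 6358, 5971, 6974, 4246 and 7514 CPM in the MCAO_Sham libraries. The MCAO values lay inside the range of their shams. In ICH it was 10125, 10401, 28138, 6681 and 17876 CPM, against 7086, 9271, 7630, 7274 and 7181 CPM in ICH_Sham. Of the 5 ICH libraries, 4 lay above every ICH_Sham library, while ICH 4 lay below all of them. Naive mice had 5488, 4678, 9375, 4725 and 4033 CPM. Naive 3 stood well above the other Naive libraries and reached the level of the highest ICH_Sham library. MCAO averaged 5562 ± 735 CPM and MCAO_Sham 6213 ± 1247 CPM, ICH 14644 ± 8578 CPM and ICH_Sham 7688 ± 909 CPM, and Naive 5660 ± 2140 CPM (SD, n = 5 each). The spread within ICH, with a coefficient of variation of 58.6%, was the widest of the 5 groups.

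miR-205-5p showed the same wide ICH group. MCAO libraries had 767, 851, 930, 1192 and 710 CPM, against 1325, 1171, 1132, 491 and 1505 CPM in MCAO_Sham. All MCAO values lay within the MCAO_Sham range, which was stretched by MCAO_Sham 5, the library at 491 CPM. ICH libraries had 1212, 1022, 7076, 1386 and 2536 CPM, against 1109, 1610, 1875, 1331 and 1240 CPM in ICH_Sham. ICH 3 and ICH 5 were above every ICH_Sham library, ICH 2 was below all of them, and the other two lay among them. Naive mice had 800, 612, 1121, 761 and 406 CPM, and 4 of 5 ICH libraries exceeded all of these. MCAO averaged 890 ± 188 CPM and MCAO_Sham 1125 ± 384 CPM, ICH 2646 ± 2546 CPM and ICH_Sham 1433 ± 308 CPM, and Naive 740 ± 263 CPM (SD, n = 5 each). The ICH median of 1386 CPM was close to the ICH_Sham median of 1331 CPM, and the coefficient of variation in ICH was 96.2%.

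**Figure D1:**
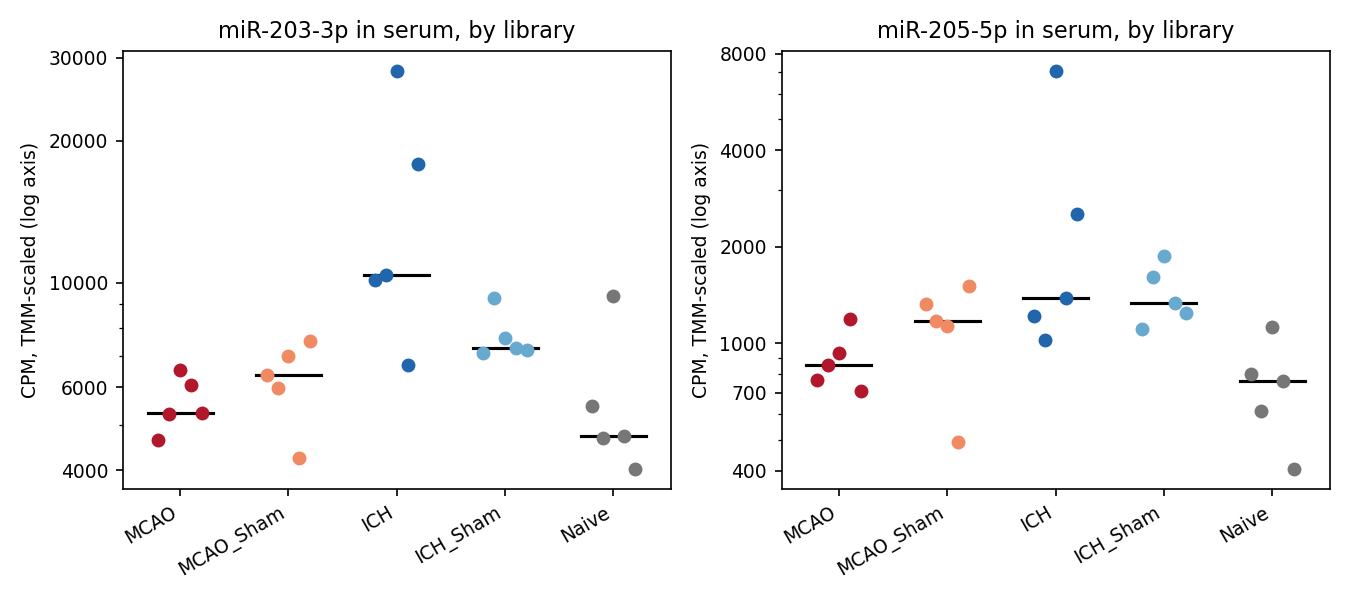
Level of miR-203-3p and miR-205-5p in every serum library, in CPM on a log axis, for the 5 groups of 5 libraries, with the group median as a black line. ICH 3 tops both panels, at 28138 CPM for miR-203-3p and 7076 CPM for miR-205-5p.

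The order of the fitted levels was ICH, ICH_Sham, MCAO_Sham, Naive and MCAO for miR-203-3p. For miR-205-5p it was ICH, ICH_Sham, MCAO_Sham, MCAO and Naive. No neighbours in either order passed the test (adjusted p 0.421 to 0.967 for miR-203-3p and 0.462 to 0.733 for miR-205-5p, edgeR quasi-likelihood test with Benjamini-Hochberg adjustment over the 199 miRNAs), although the 95% intervals of the top neighbours, ICH over ICH_Sham, left out 0 for both miRNAs. The 10 pairs of groups share libraries and are not independent of each other.

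Both miRNAs were higher in ICH than in untreated mice. These groups differ in the operation and in index tag range as well as in the placed blood, which this comparison cannot tell apart. miR-203-3p was 2.59-fold higher in ICH than in Naive (95% interval 1.74 to 3.85), a log2 fold change of 1.37 ± 0.28 (SE, edgeR quasi-likelihood, adjusted p = 0.000933). miR-205-5p was 3.58-fold higher (2.02 to 6.33), a log2 fold change of 1.84 ± 0.40 (edgeR, adjusted p = 0.00166). The test called 14.6% of the 199 miRNAs in this comparison. Each member was above all Naive libraries in 4 of 5 ICH libraries. Without ICH 3 both calls held, with log2 fold changes of 1.03 (edgeR adjusted p = 0.00362) and 1.10 (adjusted p = 0.0114), so that 1 library supplied much of the size for miR-205-5p. Red cell and lymphocyte miRNAs moved in the same comparison: the summed level of 3 red cell miRNAs averaged 22638 CPM in ICH (16689 to 26291) and 53338 CPM in Naive (39105 to 73118), and that of 2 lymphocyte miRNAs averaged 3831 CPM (2782 to 5336) and 13273 CPM (7704 to 18543). Of these, miR-486-5p, whose reads cannot be told from those of miR-3107-5p, and the lymphocyte miR-150-5p fell, with log2 fold changes of -1.42 and -1.84 (edgeR adjusted p = 0.000387 and 2.8e-05), and none rose. miR-451a, the defining red cell miRNA, had -0.33 (edgeR adjusted p = 0.519). Of 3 muscle miRNAs 1 rose, of 2 liver miRNAs 0 passed, and of 2 platelet and myeloid miRNAs 0 passed, here by the same test. Of 2 brain miRNAs 1 rose, miR-9-5p, by 3.38 ± 1.04 on the log2 scale (edgeR adjusted p = 0.0280). It had only 282 counts over all 25 libraries, so the size of this change is uncertain. Another brain miRNA, miR-124-3p, had 103 counts and did not pass the filter. Of 4 mesenchymal miRNAs 1 rose and 1 fell, with log2 fold changes from -1.04 to 1.17. The part of these cell types in the result was not tested. The log2 ratio of miR-451a over miR-23a-3p, here called the red cell ratio, did not follow the summed red cell level over the groups. It averaged -0.68 in MCAO, -1.34 in Naive and -2.14 in ICH, while the summed level averaged 25858 CPM in MCAO. With this ratio as a covariate, the log2 fold changes in ICH against Naive were 1.06 (edgeR adjusted p = 0.00853) and 1.22 (adjusted p = 0.0270).

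The needle operation without an injection and the vascular operation gave no call for either miRNA. ICH_Sham over Naive gave log2 fold changes of 0.44 ± 0.28 for miR-203-3p (edgeR adjusted p = 0.408) and 0.96 ± 0.40 for miR-205-5p (adjusted p = 0.177), where 6.53% of all miRNAs were called. The value of miR-205-5p had an interval of 0.14 to 1.78, and it passed the threshold without ICH 3, a library of neither group, at 0.99 (edgeR adjusted p = 0.0278). MCAO_Sham over Naive gave 0.14 ± 0.28 (adjusted p = 0.879) and 0.62 ± 0.40 (adjusted p = 0.536), with 0.503% of all miRNAs called. MCAO over Naive gave -0.023 ± 0.28 (adjusted p = 0.967) and 0.27 ± 0.40 (adjusted p = 0.633), although 30.7% of all miRNAs were called there. For miR-203-3p in MCAO against Naive the 95% interval of -0.59 to 0.54 leaves out a change of the size found in ICH. For miR-205-5p the interval was -0.54 to 1.09.

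Against its own sham, neither stroke model passed the test for either miRNA. In ICH over ICH_Sham the log2 fold change of miR-203-3p was 0.93 ± 0.28 (95% interval 0.37 to 1.49, edgeR adjusted p = 0.421), the smallest p of all 199 miRNAs. That of miR-205-5p was 0.88 ± 0.38 (0.11 to 1.65, edgeR adjusted p = 0.462), the ninth smallest p. The test called 0% of all miRNAs in this comparison, and DESeq2 and limma voom also called 0, while 20 miRNAs had an unadjusted p under 0.05. Without ICH 4, the low library, miR-203-3p passed at 1.09 (edgeR adjusted p = 0.0319), and without ICH 3 it stood at 0.55 (adjusted p = 0.326). miR-205-5p stood at 0.10 (edgeR adjusted p = 0.902) without ICH 3. In MCAO over MCAO_Sham the log2 fold changes were -0.16 ± 0.27 (-0.72 to 0.40, edgeR adjusted p = 0.702) for miR-203-3p and -0.34 ± 0.38 (-1.13 to 0.44, adjusted p = 0.542) for miR-205-5p, where 7.54% of all miRNAs were called.

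The MCAO and MCAO_Sham libraries fall into a lower and an upper range of index tags. In the lower range miR-203-3p averaged 5954 CPM in 3 MCAO libraries and 7244 CPM in 2 MCAO_Sham libraries, and in the upper range 4973 CPM in 2 and 5525 CPM in 3. miR-205-5p averaged 991 CPM in MCAO and 1319 CPM in MCAO_Sham in the lower range, and 738 and 995 CPM in the upper range. The means were lower in MCAO in both ranges, each from only 2 or 3 libraries per group. With tag range as a block the log2 fold changes were -0.15 and -0.36 (edgeR adjusted p = 0.618 and 0.319).

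Set directly against each other, the MCAO and ICH groups differed in both miRNAs. These groups also differ in the operation and in index tag range, which this comparison cannot tell apart from the kind of stroke. miR-203-3p ran from 4649 to 6528 CPM in MCAO and from 6681 to 28138 CPM in ICH, so the groups did not overlap. Its log2 fold change of MCAO over ICH was -1.40 ± 0.28 (edgeR adjusted p = 0.00124), a level 2.63 times lower in MCAO. For miR-205-5p the groups overlapped, with 4 of 5 MCAO libraries below every ICH library, and the log2 fold change was -1.57 ± 0.38 (edgeR adjusted p = 0.00444). In this comparison 14.6% of all miRNAs were called, and 6.03% had groups that did not overlap. Without ICH 3 the values were -1.09 (edgeR adjusted p = 0.00261) and -0.86 (adjusted p = 0.0429). The log2 ratio of miR-451a over mmu-miR-23a-3p averaged -0.68 in MCAO and -2.14 in ICH. Of the 3 red cell miRNAs 0 passed here, and miR-451a had a log2 fold change of 0.44 (edgeR adjusted p = 0.385), while mmu-miR-23a-3p, the lower part of the ratio, fell by 0.83 (adjusted p = 0.0110). With that ratio as a covariate, the log2 fold changes were -0.87 (edgeR adjusted p = 0.188) and -0.56 (adjusted p = 0.533), and neither call held. Of 4 mesenchymal miRNAs 2 fell in MCAO against ICH, with log2 fold changes of -0.84 for miR-199a-3p (edgeR adjusted p = 0.00382) and -1.15 for miR-214-3p (adjusted p = 0.0181). Their part in the result was not tested.

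Comparisons across the 2 operations gave 1 more call. miR-203-3p was higher in ICH than in MCAO_Sham, with a log2 fold change of 1.23 ± 0.28 (edgeR adjusted p = 0.0101), where 4.52% of all miRNAs were called, and without ICH 3 the value was 0.91 (adjusted p = 0.0291). miR-205-5p gave 1.22 ± 0.38 (edgeR adjusted p = 0.0569) there, and 0.50 (adjusted p = 0.259) without ICH 3. It passed at 1.22 to 1.42 when ICH 1, ICH 2, ICH 4 or Naive 3 was left out (edgeR adjusted p = 0.0200, 0.0236, 0.0325 and 0.0469, in that order). MCAO over ICH_Sham gave -0.47 ± 0.27 (adjusted p = 0.232) and -0.68 ± 0.38 (adjusted p = 0.218), with 16.6% of all miRNAs called. In that comparison the miR-203-3p levels did not overlap, as was the case for 10.1% of all miRNAs. The shams, MCAO_Sham over ICH_Sham, gave -0.31 ± 0.27 (edgeR adjusted p = 0.655) and -0.34 ± 0.38 (adjusted p = 0.733), and 0% of all miRNAs were called. In that comparison DESeq2 called 6, limma voom called 0, and 25 miRNAs had an unadjusted p under 0.05.

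Whether the 2 stroke models moved these miRNAs differently from their own shams was tested as an interaction, the MCAO effect minus the ICH effect. It was -1.09 ± 0.39 on the log2 scale for miR-203-3p (95% interval -1.88 to -0.30, edgeR adjusted p = 0.146). For miR-205-5p it was -1.22 ± 0.54 (-2.33 to -0.12, edgeR adjusted p = 0.287). Neither passed, and the test called 1.01% of all miRNAs. Without ICH 3 the interaction of miR-205-5p was -0.47 (edgeR adjusted p = 0.655).

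**Figure D2:**
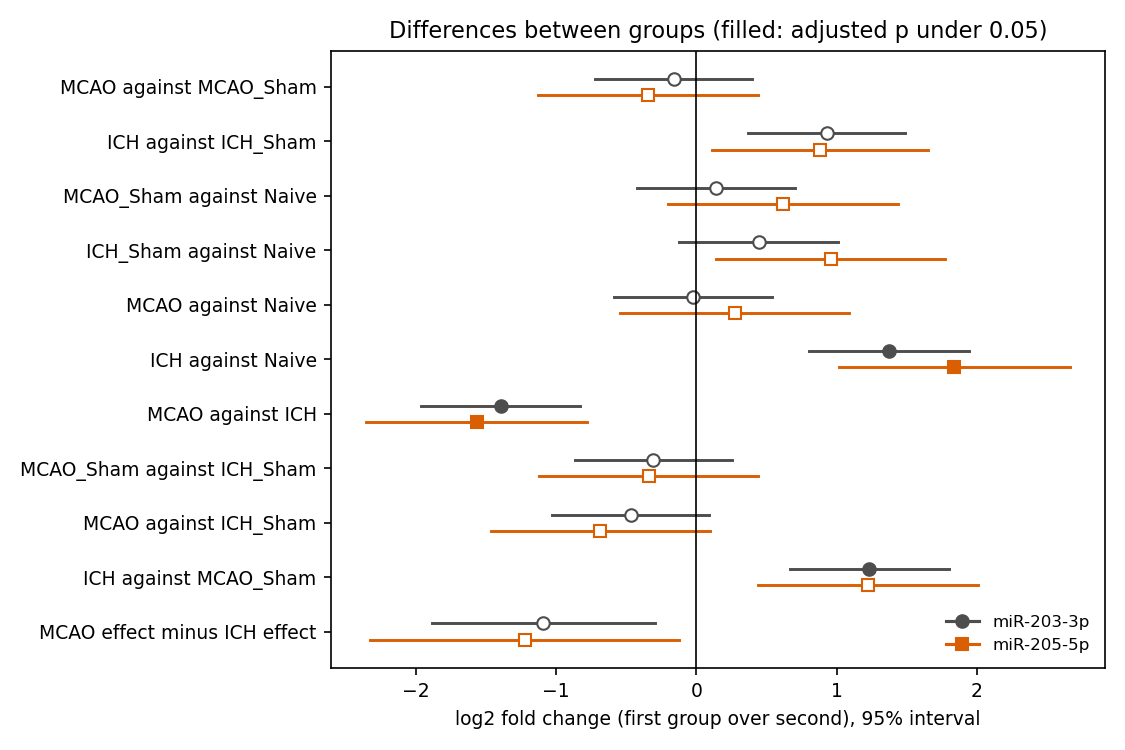
Log2 fold change of each miRNA with its 95% interval (bars) in the 10 pairs of groups and in the interaction, with filled points where the adjusted p of the edgeR quasi-likelihood test is under 0.05. The filled points are ICH against Naive and MCAO against ICH for both miRNAs, and ICH against MCAO_Sham for miR-203-3p.

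The 2 miRNAs were high in the same libraries. Over the 25 libraries the log2 CPM of miR-203-3p and miR-205-5p correlated with a Pearson r of 0.90 and a Spearman rho of 0.80 (permutation p = 1e-05 each, the smallest that 100000 resamples can give). Adjusted over the 8 sets of libraries and scalings examined, both p-values were 2e-05. Without ICH 3 and ICH 5, the libraries farthest from the median of miR-203-3p, r was 0.77 (permutation p = 4e-05, adjusted 6.4e-05) and rho 0.74 (p = 0.00012, adjusted 0.000192) over 23 libraries. The relation did not rest on the group means, since r was 0.87 and rho 0.89 after subtracting them (permutation p = 1e-05 each, adjusted 2e-05). That permutation exchanged libraries between groups of unequal spread, so its p is approximate. For miR-203-3p the SD of log2 CPM was 0.81 in ICH and 0.16 in ICH_Sham. Without the ICH group, a set chosen after seeing the data, r was 0.87 and rho 0.85 over 20 libraries (permutation p = 1e-05 each, adjusted 2e-05).

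Within index tag ranges the correlation was also positive. In the lower range r was 0.83 (exact permutation p = 0.0486, adjusted 0.0486) and rho 0.77 (p = 0.103, adjusted 0.117) over 6 libraries. In the upper range r was 0.80 (exact permutation p = 0.00539, adjusted 0.00719) and rho 0.83 (p = 0.00827, adjusted 0.0110) over 9 libraries. In the middle range, all ICH and ICH_Sham, r was 0.86 (permutation p = 0.00919, adjusted 0.0105) and rho 0.38 (p = 0.275, adjusted 0.275) over 10 libraries. ICH 3 and ICH 5, the highest in both miRNAs, lie in this range, and r there was not computed without them. ICH 2, next in miR-203-3p at 10401 CPM, was the lowest of this range in miR-205-5p at 1022 CPM. A shared rise and fall of the pair among the remaining ICH and ICH_Sham libraries is therefore not shown. With library totals alone as the scale, r was 0.92 and rho 0.82 (permutation p = 1e-05 each, adjusted 2e-05). The paired values share a library and a scaling factor.

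**Figure D3:**
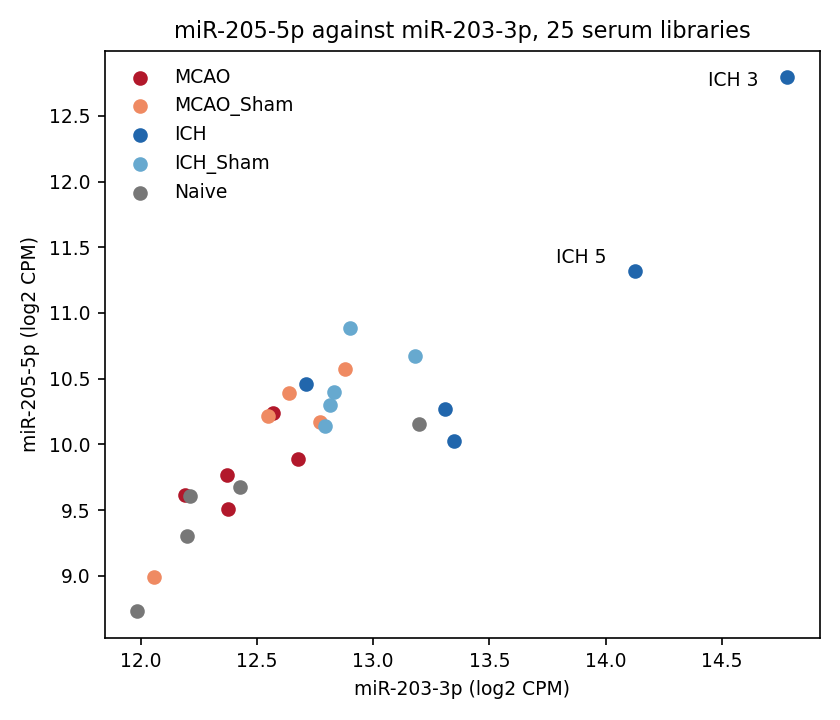
Log2 CPM of miR-205-5p against log2 CPM of miR-203-3p in the 25 libraries, coloured by group, with ICH 3 and ICH 5 named. The points follow a rising line, with r = 0.90 over all libraries and 0.77 without the 2 named ones.

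Each miRNA was the nearest match of the other. Among the 198 other kept miRNAs, miR-205-5p had the highest Pearson correlation with miR-203-3p over the 25 libraries, and the reverse held as well, both at 0.90 and at 0.87 after subtracting group means. The next for miR-203-3p were miR-199a-3p, joined in the table with miR-199b-3p, at 0.68, miR-708-3p at 0.66, miR-99a-5p at 0.55 and miR-615-3p at 0.55. For miR-205-5p they were miR-199a-3p at 0.65, miR-434-3p at 0.64, miR-379-5p at 0.63 and miR-708-3p at 0.59. miR-199a-3p is the mesenchymal miRNA that rose in ICH against Naive, by 1.17 ± 0.21 on the log2 scale (edgeR adjusted p = 0.000191). After subtracting group means, the next 4 were miR-501-3p at 0.67, miR-744-5p at 0.66, miR-339-5p at 0.63 and miR-409-3p at 0.60 for miR-203-3p. For miR-205-5p they were miR-134-5p at 0.64, miR-501-3p at 0.63, miR-339-5p at 0.62 and miR-744-5p at 0.61. These values describe likeness over 25 libraries and carry no test.

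Over the 25 libraries, the proportion of the 2 miRNAs had a narrower range than their levels. Within groups the log2 ratio of their counts did not always vary less than miR-203-3p. Its SD was 0.21 in MCAO, 0.35 in MCAO_Sham and 0.25 in ICH_Sham. For log2 CPM of miR-203-3p the SD was 0.19, 0.32 and 0.16 there. In ICH and Naive the ratio had the smaller SD, 0.56 and 0.26 against 0.81 and 0.47. Log2 CPM of miR-205-5p had a larger SD than the ratio in every group. The counts of miR-203-3p over those of miR-205-5p ran from 3.98 to 10.2 with a median of 6.20 over the 25 libraries. MCAO had a mean ratio of 6.37 ± 0.921 and MCAO_Sham one of 5.94 ± 1.61, ICH 6.87 ± 2.53 and ICH_Sham 5.50 ± 0.865, and Naive 7.81 ± 1.44 (SD, n = 5 each). Both ends of the range were ICH libraries, with ICH 3 at 3.98 and ICH 2 at 10.2. The high level in ICH 3 was thus the more marked for miR-205-5p.

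Other epithelial miRNAs did not follow the pair. A list of 10 miRNAs of epithelia and skin, from the miR-200 family, the miR-183 cluster, miR-31-5p and miR-184-3p, had 8 members above the filter, while miR-96-5p had 9 counts and miR-31-5p 17 counts in all. In MCAO against MCAO_Sham 3 of 8 rose and 0 fell, where 7.54% of all miRNAs were called, with a median log2 fold change of 1.38 over the list and 0.0048 over all 199 miRNAs. They were miR-200a-3p at 1.50 ± 0.34 (edgeR adjusted p = 0.00982), miR-200b-3p at 1.37 ± 0.35 (adjusted p = 0.0136) and miR-141-3p at 1.67 ± 0.46 (adjusted p = 0.0186), all of the miR-200 family. The levels of all 3 overlapped between these groups. miR-200a-3p, for example, ran from 3041 to 24700 CPM in MCAO and from 2999 to 7517 CPM in MCAO_Sham. In ICH against ICH_Sham 0 of 8 passed, as did 0% of all miRNAs, with a median of -0.30 over the list and 0.021 over all. In ICH against Naive, where both members of the pair rose and 14.6% of all miRNAs were called, 0 of 8 passed and the median was 0.18. In MCAO against ICH the pair fell, whereas 5 of the 8 rose and 0 fell (median 1.53, with 14.6% of all miRNAs called), namely miR-200a-3p, miR-200b-3p, miR-200c-3p, miR-141-3p and miR-182-5p. The list also gave 7 rises in MCAO against Naive, with a median of 1.64, where 30.7% of all miRNAs were called and the pair had no call.

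**Figure D4:**
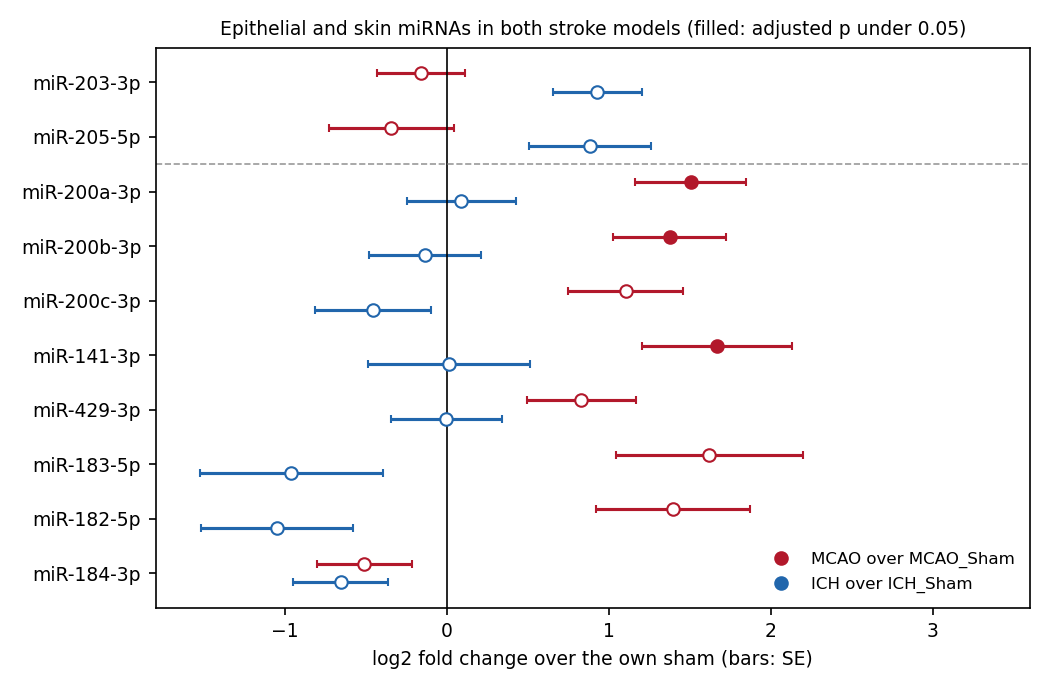
Log2 fold change with its SE (bars) of each stroke group over its own sham for miR-203-3p, miR-205-5p and 8 other miRNAs of epithelia and skin. In MCAO the miR-200 family members sit to the right of the pair, up to 1.67, and in ICH the pair, at 0.93 and 0.88, sits to the right of the others.

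ICH 3, the library with the highest level of both miRNAs, was only slightly above the other ICH libraries in the summed level of the other epithelial miRNAs. Their summed level was 21654 CPM in ICH 3, against 13320 to 20866 CPM in the other 4 ICH libraries. Much of this sum was miR-184-3p, which averaged 9897 CPM in ICH, where the list averaged 19148 CPM. The sum therefore says little about the miR-200 family and the miR-183 cluster in ICH 3. The summed level of the 3 red cell miRNAs was 16689 CPM in ICH 3, the lowest of the ICH group. The 2 liver miRNAs summed to 37751 CPM, also the lowest of that group. The part that these differences have in the level of the pair in ICH 3 was not tested.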

How the data were processed

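The authors deposited 1 table of raw read counts per mature miRNA, with 50 columns that are 2 runs of 25 libraries. The submitters' processing notes name Bowtie 0.12.9. For annotation and multi-mapped reads, the sources used here give no rules. The labels call the sequencing paired-end; columns with the same index tag were read as separate runs, an inference, and summed, since they differed by about sampling noise (chi-square over degrees of freedom, 0.792 to 1.27). edgeR 4.0.16 in R 4.3.3 was run on the deposited counts: filterByExpr with a minimum count of 10 kept 199 miRNAs with 99.5% of counts, followed by TMM scaling and a robust quasi-likelihood fit with a mean per group over all libraries. Benjamini-Hochberg adjustment ran over all 199, with a threshold of 0.05. Intervals of log2 fold changes use the t distribution. The fit was checked on data with known changes.

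Alternatives used DESeq2 1.42.0, limma 3.58.1, other scalings, filters, runs, blocks, thinning to 38393 counts, the red cell ratio and each library left out. Correlations used log2 CPM (prior count 2), with exact permutation under 10 libraries. The members and lists were chosen with earlier results of these data known. Named miRNAs are the members, their other arms, the 5 most similar and the 2 neighbours in abundance on each side, and the epithelial miRNAs that passed in a stroke model against its sham. Other miRNAs of epithelia, red cells, lymphocytes, liver, brain and mesenchyme, and miR-23a-3p, were named after their values were seen.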

Additional observations from a re-analysis of the deposited data

Results flagged for a closer look

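In 3 of 15 sets of 5 libraries (the level of each miRNA and the ratio of their counts, in each group), 1 library stood apart from the others by Dixon's test, which chance gives in about 1 of 20 sets. miR-205-5p in ICH 3 was at 7076 CPM, with the next ICH library at 2536 CPM, a gap of 0.750 of the range against a critical value of 0.71. miR-203-3p in ICH_Sham 2 was at 9271 CPM, with the other 4 ICH_Sham libraries at 7086 to 7630 CPM, a gap of 0.751 of the range. miR-203-3p in Naive 3 was at 9375 CPM, with the other 4 Naive libraries at 4033 to 5488 CPM, a gap of 0.728 of the range.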

How the results depend on the processing

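Of 820 alternative values for the members' log2 fold changes, 794 kept their direction and their side of the threshold. With the red cell ratio as a covariate, the log2 fold change in MCAO against MCAO_Sham turned to 0.081 for miR-203-3p and 0.11 for miR-205-5p, and MCAO against ICH lost its calls at -0.87 and -0.56. For miR-203-3p in MCAO against Naive, near 0 throughout, the sign turned to 0.12 without a filter, 0.036 with limma voom, 0.052 with run 2 only, 0.032 with the replicate block and 0.19 with the red cell covariate. With only the groups compared in the fit, miR-205-5p lost its call in MCAO against ICH (-1.62, adjusted p = 0.0529). In the same fits it passed in ICH_Sham against Naive (0.97), and MCAO against ICH_Sham passed for miR-203-3p (-0.52) and miR-205-5p (-0.75). miR-205-5p in ICH against MCAO_Sham passed at 1.26 with RLE factors, 1.31 without a filter, 1.27 with DESeq2 and 1.28 with run 2 only. With each library left out in turn, the log2 fold change of miR-203-3p ran from 0.55 to 1.09 in ICH against ICH_Sham and from -0.15 to 0.18 in MCAO against Naive. That of miR-205-5p ran from 0.85 to 1.17 in ICH_Sham against Naive, from -0.82 to -0.63 in MCAO against ICH_Sham and from 0.50 to 1.42 in ICH against MCAO_Sham. The cause of these changes was not tested. Libraries with the same replicate number were not taken as paired (46 pairs, r from -0.35 to 0.54, median 0.028, with 14 over 0.1, and no pair of groups with every r over 0.1), and the replicate block changed no call of either miRNA. It gave 1.33 and 1.65 in ICH against Naive.

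The number of all miRNAs called ranged over the alternatives from 2 to 55 in MCAO against MCAO_Sham, 0 to 1 in ICH against ICH_Sham, 0 to 2 in MCAO_Sham against Naive, 9 to 19 in ICH_Sham against Naive, 21 to 73 in MCAO against Naive, 15 to 44 in ICH against Naive, 7 to 39 in MCAO against ICH, 0 to 6 in MCAO_Sham against ICH_Sham, 7 to 54 in MCAO against ICH_Sham, 3 to 28 in ICH against MCAO_Sham and 0 to 7 for the interaction. Depth limits miR-205-5p in Naive most, at 195 counts in 5 libraries.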
